A study of Homo sapiens with 2 samples.

Results

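Neuronal microRNAs were examined in Jurkat cells, an established human T-cell leukemia line. The set held 9 mature miRNAs that are enriched in brain: hsa-miR-124-3p, hsa-miR-9-5p, hsa-miR-9-3p, hsa-miR-129-5p, hsa-miR-137-3p, hsa-miR-219a-5p, hsa-miR-138-5p, hsa-miR-218-5p and hsa-miR-153-3p. They were 9 of the 1450 mature miRNAs in the deposited table, and all 9 were found there by name. The members were chosen from the same contrast that is described here, with their levels known. Their differences are therefore a description, and no test was run on them.

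The study asked how the long noncoding RNA PELATON, called lnc-CEBPB-13 in the sample labels, affects miRNA levels in T cells. Jurkat cells infected with a PELATON overexpression lentivirus (overexpression group) were compared with Jurkat cells infected with a control lentivirus (control group). Polybrene was added at infection and stable lines were then selected with puromycin, so both groups share these exposures. The labels name 1 sample per group, while the deposited group means were the means of 2 sequenced libraries each.

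Each group's libraries are named A and B here, and a letter pairs nothing across groups. The sources used here do not say whether they were grown as separate cultures, so the spread between them may be technical. The 2 overexpression libraries held 2052494 and 1177485 miRNA reads, against 2615868 and 2663279 in the control libraries. Levels are given as normalized counts, which are reads divided by the size factor of the library. The size factors were 1.10 and 0.645 for overexpression and 1.25 and 1.18 for control. PELATON itself is not a miRNA and was not measured in this table. The T-cell label was checked against 10 T-cell and leukocyte miRNAs. All 10 were present, though miR-155-5p had only 3 and 7 reads in overexpression and 4 and 13 in control. None was 2-fold higher or lower, beside 15.6% and 14.7% of all miRNAs with an overall mean of at least 1. The log2 ratios of overexpression over control lay between −0.74 and 0.91. The libraries did not overlap for 2 that were higher and 5 that were lower, beside 22.4% and 23.8% of all miRNAs. A ratio between groups cannot check a label that both groups share. miR-181a-5p, a miRNA of thymocytes, averaged 237970 normalized counts in overexpression and 253427 in control.

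A miRNA is cut from a hairpin precursor, and either arm of the hairpin, 5p or 3p, can be loaded into the silencing complex. Bases 2 to 8 of the mature strand, the seed, pair with target transcripts. In neurons, miR-124 and miR-9 are abundant and hold down transcripts of non-neuronal cells and of progenitors, and REST, a repressor of neuronal genes in other tissues, keeps their genes low outside the nervous system.

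The mature sequences are shown to let the seeds be compared, with the seed in capitals, for the 8 members matched in the RefSeq table (GRCh38.p14). Each is written 5′ to 3′.
hsa-miR-9-5p: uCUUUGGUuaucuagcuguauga
hsa-miR-9-3p: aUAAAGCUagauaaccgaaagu
hsa-miR-153-3p: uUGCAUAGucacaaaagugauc
hsa-miR-129-5p: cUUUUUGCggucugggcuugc
hsa-miR-138-5p: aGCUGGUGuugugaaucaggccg
hsa-miR-219a-5p: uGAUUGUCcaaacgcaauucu
hsa-miR-218-5p: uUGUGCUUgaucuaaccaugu
hsa-miR-137-3p: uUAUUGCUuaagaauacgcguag

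The 8 sequences carried 8 different seeds, so the set is not a seed family. They were 21 to 23 bases long, and their GC content ran between 31.8% and 57.1%. Of the 1285 miRNAs in the table with a RefSeq sequence, only hsa-miR-6766-3p shared a seed with a member, the seed of miR-219a-5p. It had 7 and 3 reads in overexpression and 4 and 7 reads in control.

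Both miR-9 members come from the same 3 hairpins. They are printed because the 2 most abundant members are their opposite arms, which are in capitals, first the 5p arm and then the 3p arm.
MIR9-1: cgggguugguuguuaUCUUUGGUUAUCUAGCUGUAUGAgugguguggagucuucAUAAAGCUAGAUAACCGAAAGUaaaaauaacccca
MIR9-2: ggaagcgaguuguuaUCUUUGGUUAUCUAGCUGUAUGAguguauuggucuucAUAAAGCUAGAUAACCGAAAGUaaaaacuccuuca
MIR9-3: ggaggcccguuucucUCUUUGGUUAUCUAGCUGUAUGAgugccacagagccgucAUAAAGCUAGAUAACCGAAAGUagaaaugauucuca

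The 3 hairpins differ in their loops and stems, while the arms in capitals are identical. Reads of miR-9-5p or miR-9-3p therefore cannot be assigned to a locus. In GRCh38 with GENCODE 29, MIR9-1 lies at chr1:156420341-156420429 on the minus strand in an intron of C1orf61. MIR9-2 lies at chr5:88666853-88666939 on the minus strand in an exon of LINC00461, and MIR9-3 lies at chr15:89368017-89368106 on the plus strand in an intron of MIR9-3HG.

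Among the 9 members, miR-9-5p was the most abundant in both groups, and miR-124-3p differed most between them. By mean level in overexpression cells the order was miR-9-5p, miR-9-3p, miR-153-3p, miR-138-5p, miR-129-5p, miR-124-3p, miR-219a-5p, miR-218-5p and miR-137-3p. The library ranges overlapped between miR-138-5p, miR-129-5p and miR-124-3p, and between miR-218-5p and miR-137-3p. In control cells the order was miR-9-5p, miR-9-3p, miR-153-3p, miR-129-5p, miR-138-5p, miR-219a-5p, miR-218-5p, miR-137-3p and miR-124-3p, and only miR-218-5p and miR-137-3p overlapped among neighbours. All members together took 0.257% and 0.256% of the reads in overexpression libraries, against 0.367% and 0.420% in control libraries. miR-9-5p alone was 86.1% and 86.8% of these member reads in overexpression and 87.8% and 88.2% in control.

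**Figure D1:**
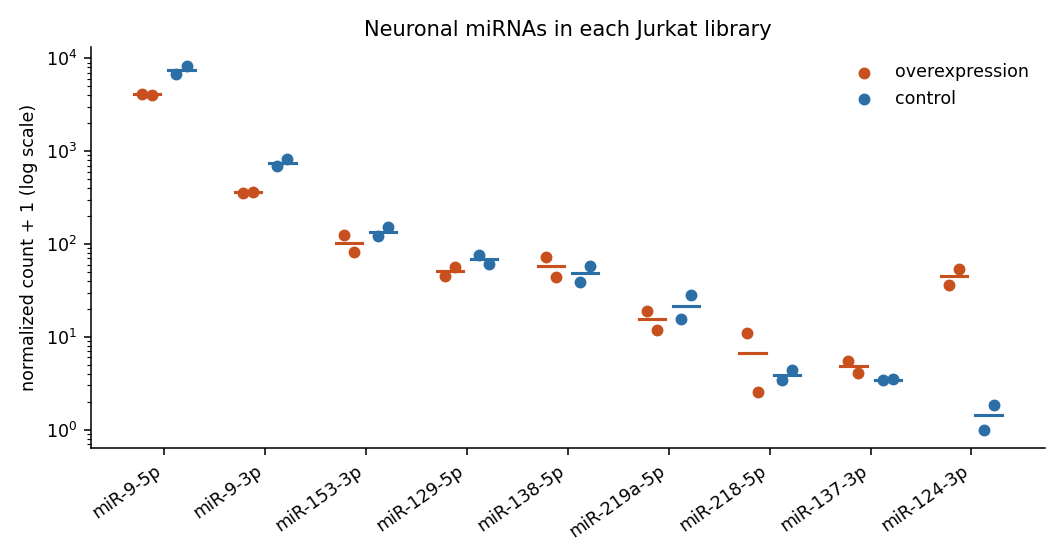
Normalized count plus 1 (log scale) of the 9 neuronal miRNAs in each library of the overexpression group (left) and the control group (right). Points are libraries (2 per group) and bars are group means, and miR-124-3p, at the far right, has a mean of 44.0 in overexpression and 0.424 in control.

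A difference of at least 2-fold between group means, after adding a pseudocount of 1, was counted as higher or lower. It was read over the 1115 miRNAs whose overall mean reached 1. All 9 members passed this filter. Only miR-124-3p was counted higher (1 of 9), beside 15.6% of all miRNAs counted higher. Only miR-9-3p was counted lower (1 of 9), beside 14.7% of all miRNAs. The libraries of the groups did not overlap, with overexpression higher, for miR-124-3p and miR-137-3p, beside 22.4% of all miRNAs. They did not overlap, with overexpression lower, for miR-9-5p, miR-9-3p and miR-129-5p, beside 23.8% of all miRNAs. The other 4 members overlapped. With libraries scaled to total reads, 224 of all miRNAs were counted higher and 105 lower, against 174 higher and 164 lower as reported. The median log2 ratio of overexpression over control was −0.40 over the 9 members and 0.06 over all 1115 miRNAs. As these members were picked with the contrast known, nothing is read from these shares.

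**Figure D2:**
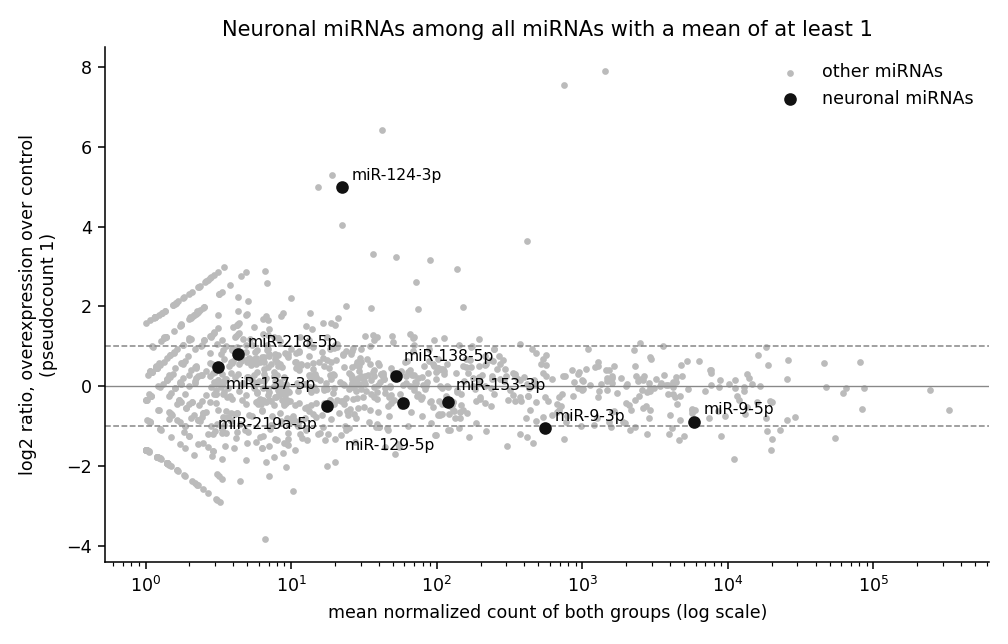
Log2 ratio of overexpression over control (pseudocount 1) against the mean normalized count of both groups (log scale) for the 1115 miRNAs with a mean of at least 1. Black points are the 9 neuronal miRNAs, grey points are the other miRNAs, and the dashed lines mark a 2-fold difference. miR-124-3p stands at 4.98, and the other 8 lie between −1.06 and 0.80.

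miR-9-5p, which limits progenitor proliferation in the developing brain and represses REST, was the most abundant member. It had 4540 and 2619 reads in the overexpression libraries, against 8417 and 9865 reads in the control libraries. The normalized counts were 4124 and 4058 in overexpression and 6738 and 8370 in control. The overexpression libraries lay close together and both stood below the control libraries. The mean was 4091 ± 46.7 in overexpression and 7554 ± 1154 in control (SD, n = 2 libraries each), a log2 ratio of −0.88. The ratio of the pooled reads was 0.544, and counting error alone put its exact 95% interval at 0.530 to 0.559. Among the 1450 miRNAs, miR-9-5p ranked 66 in overexpression and 46 in control. Leukocyte miRNAs lay on the same side in part. Of the 10 on the list, 5 were lower in overexpression without overlap of the libraries, beside 23.8% of all miRNAs, and 2 were higher. The log2 ratio was −0.74 for miR-142-5p, −0.71 for miR-142-3p and −0.62 for miR-150-5p. For the 2 that were higher it was 0.91 (miR-146a-5p) and 0.51 (miR-146b-5p), and the median of the 10 was −0.08. The part of leukocyte miRNAs in the level of miR-9 was not tested. These are bulk libraries, in which fewer cells with a miRNA and less of it per cell cannot be told apart.

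miR-9-3p, the opposite arm, which in neural cells acts against the BAF chromatin subunit ACTL6A and the REST partner RCOR1, was likewise lower in both overexpression libraries. It had 392 and 236 reads in overexpression, against 857 and 964 reads in control. Normalized counts came to 356 and 366 in overexpression and 686 and 818 in control, with no overlap. The mean was 361 ± 6.78 in overexpression and 752 ± 93.3 in control (SD, n = 2 libraries each), a log2 ratio of −1.06. This value lies just past the 2-fold line. It was −0.82 when libraries were scaled to total reads and −0.93 without control library B, and the miRNA was then not counted lower. In contrast, miR-9-5p passed the line at −1.04 with upper-quartile scaling and at −1.03 without control library A. The log2 ratio of miR-9-5p was −0.64 with libraries scaled to total reads and −0.72 without control library B. Scaling to total reads moved the median log2 ratio of all miRNAs upward by 0.21.

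The arms of miR-9 kept nearly the same proportion in the 4 libraries. The 5p arm made up 92.1% (91.3 to 92.8) and 91.7% (90.7 to 92.7) of miR-9 reads in overexpression, against 90.8% (90.2 to 91.3) and 91.1% (90.5 to 91.6) in control. Parentheses give exact 95% binomial intervals, which cover counting error only. The intervals of both overexpression libraries overlapped those of both control libraries, which does not show the proportions to be equal. Both overexpression shares lay slightly above both control shares. The 3 miRNAs nearest to miR-9-5p in level over the 4 libraries were miR-29a-3p, miR-106b-5p and miR-1260b. Nearness was the Euclidean distance of log2 normalized counts plus 1, and the distances were 0.357, 0.365 and 0.477. miR-29a-3p, for example, averaged 4366 normalized counts in overexpression and 6920 in control, a pattern that the choice by nearness favours.

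miR-124-3p, the most abundant miRNA of mature neurons and a repressor of the splicing regulator PTBP1, had nearly all of its reads in the overexpression libraries. It had 39 and 34 reads in overexpression, against 0 and 1 reads in control. After normalization the counts were 35.4 and 52.7 in overexpression and 0 and 0.848 in control. Both overexpression libraries were high and both control libraries were at or near 0. The mean was 44.0 ± 12.2 in overexpression and 0.424 ± 0.600 in control (SD, n = 2 libraries each), a log2 ratio of 4.98. With 1 control read, the ratio of pooled reads was 101, with an exact 95% counting interval of 17.7 to 4062. The rank among 1450 miRNAs was 381 in overexpression and 1173 in control.

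The log2 ratio of miR-124-3p depended on the pseudocount, with 5.59 at a pseudocount of 0.5 and 3.18 at a pseudocount of 5. It stayed between 4.87 and 5.15 under 4 other scalings and between 4.61 and 5.49 when each library was left out in turn. The passenger arm miR-124-5p had 0 and 2 reads in overexpression libraries and none in control. This is under the floor of 3 reads and allows no fold. In GENCODE 29, MIR124-1 lies in an exon of LINC00599 and MIR124-2 in an intron of MIR124-2HG. MIR124-3 lies at chr20:63178500-63178586 on the plus strand, opposite an intron of AL096828.1. The 3 genes make the same mature strand, so the locus that gave the reads cannot be named.

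The 3 miRNAs nearest to miR-124-3p over the 4 libraries were miR-133b, miR-133a-5p and miR-145-5p, at distances of 1.00, 1.14 and 1.31. miR-133b, a miRNA of striated muscle, had 28 and 33 reads in overexpression and 0 reads in both control libraries. miR-133a-5p, also of muscle, had 30 and 22 reads in overexpression and 0 reads in both control libraries. miR-145-5p, a miRNA of smooth muscle and fibroblasts, had 30 and 38 reads in overexpression, against 0 and 4 reads in control. All 3 were present in the overexpression libraries and at or near 0 in control. They were picked for nearness to miR-124-3p over these same libraries, so this pattern follows from the choice.

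Marker miRNAs of other cell types are given beside miR-124-3p, and 15.6% of all miRNAs were counted higher. Of 7 striated muscle miRNAs, 5 were in the table and 4 were counted higher, while miR-499a-5p had a log2 ratio of −0.02. Their summed normalized counts were 4078 to 4891 in overexpression and 33.1 to 56.0 in control, where miR-206 and miR-133b were at 0. Of 5 smooth muscle and fibroblast miRNAs, 4 were counted higher, with sums of 437 to 502 in overexpression and 115 to 151 in control. Of 4 red blood cell miRNAs, 2 were counted higher, with sums of 769 to 1129 in overexpression and 122 to 160.1 in control. The liver miRNA miR-122-5p had 52.7 to 183 normalized counts in overexpression and 28.0 to 32.0 in control. None of 6 epithelial miRNAs was counted higher or lower, with sums of 654 to 827 in overexpression and 856 to 894 in control. Their part in the level of miR-124-3p was not tested.

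miR-153-3p was the next most abundant member. It had 136 and 53 reads in overexpression, against 151 and 177 reads in control. Normalized, these were 123.5 and 82.1 in overexpression and 120.9 and 150.2 in control, so the groups overlapped. The log2 ratio was −0.40, and it ran between −0.72 and −0.13 over 10 other settings. The 3p arm made up 85.5% and 91.4% of miR-153 reads in overexpression, against 85.3% and 89.4% in control.

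miR-129-5p, which represses the potassium channel transcript Kcna1 in rodent neurons, had 49 and 36 reads in overexpression, against 94 and 70 reads in control. After normalization this gave 44.5 and 55.8 in overexpression and 75.2 and 59.4 in control. The groups did not overlap, but the gap between the nearest libraries was small beside the spread within each group. The mean was 50.1 ± 7.97 in overexpression and 67.3 ± 11.2 in control (SD, n = 2 libraries each), a log2 ratio of −0.42.

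The 3p arms show which miR-129 hairpin was read, since the 5p arm is the same from both. They are given with the seed in capitals.
hsa-miR-129-2-3p: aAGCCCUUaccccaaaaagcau
hsa-miR-129-1-3p: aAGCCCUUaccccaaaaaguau

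They differ by 1 substitution, C20U, with positions counted from 1 at the 5′ end of miR-129-2-3p. miR-129-2-3p had 16 and 15 reads in overexpression, against 28 and 45 reads in control. miR-129-1-3p had 1 and 5 reads in overexpression, against 0 and 3 reads in control. The form from MIR129-2, at chr11:43581394-43581483 on the plus strand in introns of AC068205.1 and AC068205.2, was thus the more frequent in all 4 libraries. With 1 base between them, a sequencing error could move a read from one to the other. miR-129-1-3p was counted higher at a log2 ratio of 1.23 on these few reads, with overlapping libraries.

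miR-138-5p, which limits dendritic spine size in rat neurons, had 78 and 28 reads in overexpression, against 48 and 68 reads in control. Normalized counts of 70.8 and 43.4 in overexpression overlapped those of 38.4 and 57.7 in control. The log2 ratio was 0.24, and it changed sign among the other settings, between −0.14 and 0.56. Its passenger strand miR-138-1-3p had 7 and 3 reads in overexpression and 0 reads in both control libraries. Its mean in overexpression was 4.45 times a floor of 3 reads over the control group. That figure leaves out the counting error of its few overexpression reads, so it is not a lower limit. miR-138-2-3p had 2 and 0 reads in overexpression and 1 read in each control library, which allows no statement on a difference.

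miR-219a-5p, which drives oligodendrocyte maturation, had 20 and 7 reads in overexpression, against 18 and 32 reads in control. The normalized counts were 18.2 and 10.8 in overexpression and 14.4 and 27.2 in control, so the groups overlapped. The log2 ratio was −0.49 and ran between −0.88 and 0.01 over the other settings.

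In Jurkat cells the opposite arm of MIR219A1 was the more frequent strand. Its hairpin is shown with miR-219a-5p and then miR-219a-1-3p in capitals (GRCh38.p14, chr6:33207835-33207944, plus strand).
MIR219A1: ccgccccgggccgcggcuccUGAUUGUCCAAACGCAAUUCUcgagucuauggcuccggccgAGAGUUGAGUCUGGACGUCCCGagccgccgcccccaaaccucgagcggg

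miR-219a-1-3p had 54 and 50 reads in overexpression, against 88 and 58 reads in control. The 5p arm made up 27.0% (17.4 to 38.6) and 12.3% (5.08 to 23.7) of the reads of both strands in overexpression, against 17.0% (10.4 to 25.5) and 35.6% (25.7 to 46.3) in control. It was the minor strand in all 4 libraries, whereas miR-9-5p, miR-153-3p, miR-129-5p and miR-138-5p were the major strand in all 4. MIR219A2, at chr9:128392618-128392714 on the minus strand, makes the same 5p strand, and its own 3p strand miR-219a-2-3p had 1 read, in overexpression library B. MIR219B lies on the opposite strand of MIR219A2, at chr9:128392621-128392708. Its product miR-219b-5p had 19 and 10 reads in overexpression, against 16 and 13 reads in control, a log2 ratio of 0.43 without overlap. miR-219b-3p had 4 and 2 reads in overexpression and 4 reads in each control library.

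**Figure D3:**
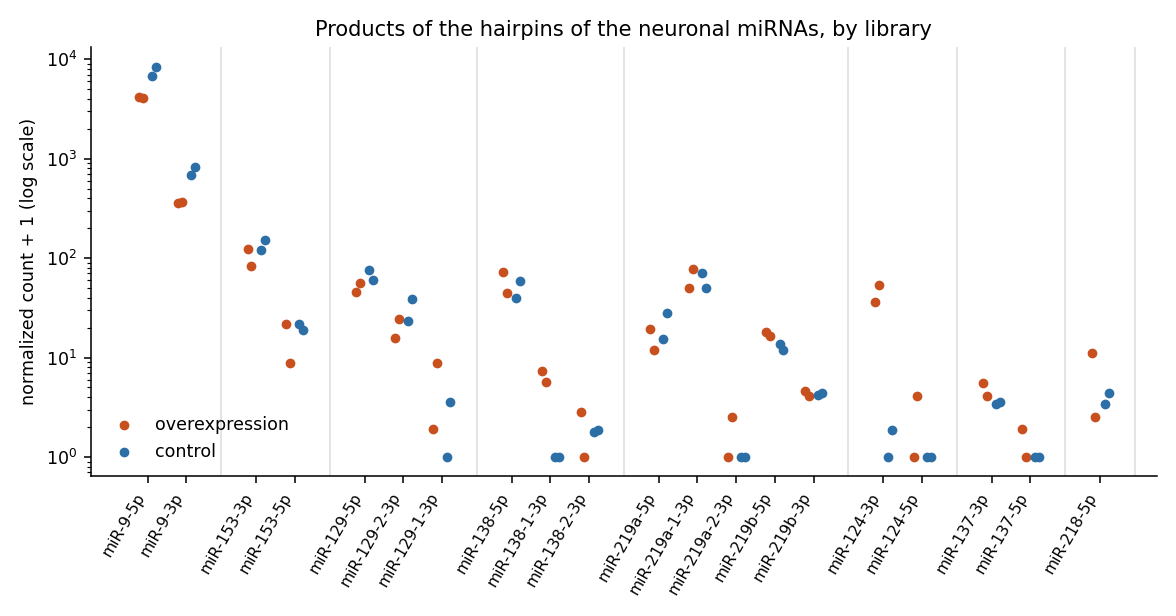
Normalized count plus 1 (log scale) of every product of the members' hairpins in each library, with overexpression libraries left of control libraries and vertical lines between hairpin families. miR-219a-1-3p lies above miR-219a-5p in every library, whereas miR-9-5p lies above miR-9-3p.

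miR-218-5p and miR-137-3p were near the limit of detection. miR-218-5p, a miRNA of motor neurons in mice, had 11 and 1 reads in overexpression, against 3 and 4 reads in control. Normalized counts came to 9.99 and 1.55 in overexpression and 2.40 and 3.39 in control. Overexpression library A decided its log2 ratio of 0.80, which was −0.61 without that library. Without overexpression library B it passed the 2-fold line and was counted higher. The ratio of pooled reads was 2.38, with an exact 95% interval of 0.865 to 7.14, so a difference was not detectable at this depth. Its hairpins MIR218-1 and MIR218-2 lie in introns of SLIT2 and SLIT3, genes of axon guidance.

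miR-137-3p, which promotes neuronal differentiation and whose locus is linked to schizophrenia, had 5 and 2 reads in overexpression and 3 reads in each control library. The normalized counts were 4.54 and 3.10 in overexpression and 2.40 and 2.55 in control. The libraries did not overlap, but the ratio of pooled reads was 1.62, with an exact 95% interval of 0.467 to 5.84, and no difference was detectable at this depth. Its opposite arm miR-137-5p had 1 read in all, in overexpression library A. MIR137 lies at chr1:98046070-98046171 on the minus strand in an exon of MIR137HG.

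The remaining hairpin strand, miR-153-5p, had 23 and 5 reads in overexpression, against 26 and 21 reads in control. Of all 11 other strands of the members' hairpins in the table, 7 passed the filter. Of these 7, 2 were counted higher (miR-138-1-3p and miR-129-1-3p), beside 15.6% of all miRNAs. None was counted lower, beside 14.7%. Both calls rest on few reads, and with at least 50 reads none was counted higher. The median log2 ratio of the 7 was 0.08, against 0.06 over all 1115 miRNAs.

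The members without miR-9 did not move together. Their summed normalized counts were 249 to 307 in overexpression and 254 to 301 in control, with a median log2 ratio of 0.24 over 7 members. With miR-9 the sums were 4673 to 4787 in overexpression and 7678 to 9489 in control. Within these 9 members, the lower total in the overexpression libraries lay in the miR-9 reads.

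A further 30 miRNAs, called brain-enriched here, were listed from textbook knowledge as enriched or abundant in brain or retina. Of the 30, 22 were in the table and 21 passed the filter. Of these 21, 1 was counted higher and 1 lower, beside 15.6% and 14.7% of all miRNAs, and the median log2 ratio was 0.18. The libraries did not overlap for 6 with overexpression higher and for 4 with overexpression lower, beside 22.4% and 23.8% of all miRNAs. The summed normalized counts of the list were 70100 to 70231 in overexpression and 73429 to 75168 in control. Most of both sums was miR-128-3p, with a mean of 47286 in overexpression and 47689 in control. The next most abundant was miR-7-5p, with 9967 in overexpression and 16121 in control, so the sums say little about the rest of the list. miR-383-5p was counted higher with 3 and 1 reads in overexpression and 0 reads in both control libraries. miR-211-5p was counted lower with 0 reads in both overexpression libraries, against 7 and 0 reads in control. Both calls rest on under 10 reads. Among those with a mean of at least 10, the largest log2 ratios were 0.94 for miR-760 and 0.61 for miR-135a-5p. The smallest were −0.74 for miR-935 and −0.73 for miR-212-3p, a miRNA induced by CREB in active neurons.

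Chosen after their values were seen, some abundant miRNAs of this list are given for comparison with miR-9. miR-7-5p averaged 9967 normalized counts in overexpression and 16121 in control, with no overlap. miR-132-3p, from the same cluster as miR-212-3p, averaged 550.3 in overexpression and 838 in control, with no overlap. miR-128-3p, which dampens neuronal excitability in mice, averaged 47286 in overexpression and 47689 in control, and its libraries overlapped. Others went the other way without overlap. miR-744-5p averaged 5259 in overexpression and 4429 in control, and miR-760 averaged 1439 in overexpression and 748 in control. Of the 21 that passed the filter, 6 were higher and 4 lower without overlap, beside 22.4% and 23.8% of all miRNAs.

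Across scalings, pseudocounts and libraries left out, 86 of 90 log2 ratios of the members kept their sign, and 6 of 9 members kept it throughout. The other 3 were miR-138-5p, miR-219a-5p and miR-218-5p.

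**Figure D4:**
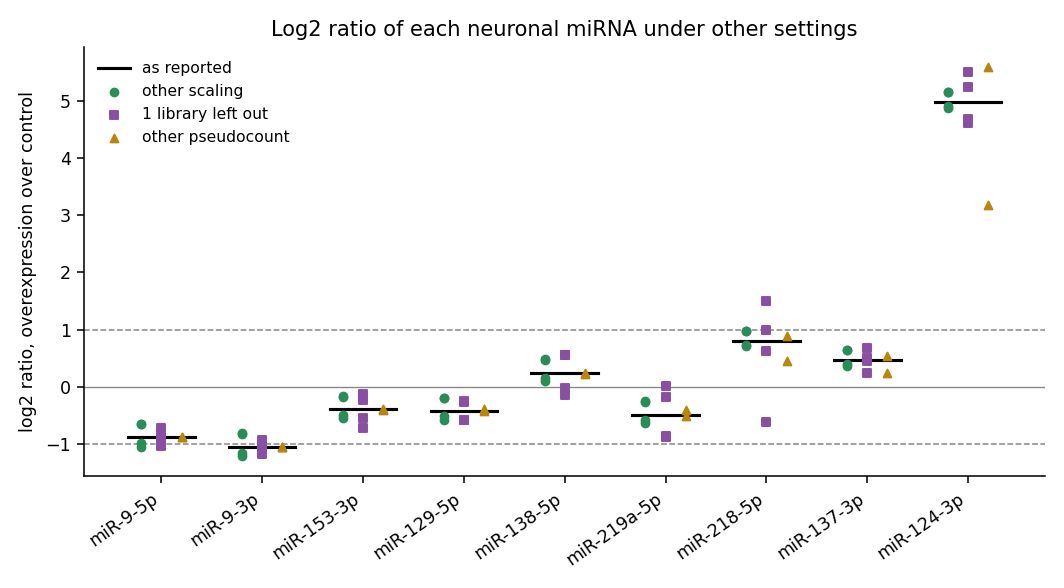
Log2 ratio of overexpression over control for each neuronal miRNA as reported (black bars) and with another scaling (circles), 1 library left out (squares) or another pseudocount (triangles). Dashed lines mark a 2-fold difference. miR-124-3p stays above 3, and both miR-9 arms stay near the lower line, between −1.22 and −0.64.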

How the data were processed

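Small RNA libraries were made from total RNA of Jurkat cells, per the study's methods. The labels describe an mRNA kit instead. The authors deposited 1 table of 1450 mature miRNAs with DESeq-normalized group means, a signal in units of reads divided by a size factor, on build GRCh38.p14 per the submitters' notes. The aligner, trimming and annotation are not given in the sources used here. The table also holds the authors' fold changes and p-values, which were not used.

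Each group mean was resolved into the whole reads of 2 libraries. All 2900 of 2900 values came out whole (relative tolerance 1e-12, absolute tolerance 1e-09). Size factors recomputed by the median-of-ratios method over 788 miRNAs were equal to the recovered ones. Recovery was tested on simulated data. Ratios used a pseudocount of 1, an overall mean of 1 or more and a 2-fold threshold. With 1 labelled sample per group, and members chosen by the same contrast, no p-value was computed. Intervals are exact at 95% and, since reads carry no molecular identifiers, cover counting error only.

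Members and lists were chosen with earlier results of these data known. The miRNAs named were the 9 members, the other strands of their hairpins and miRNAs with the seed of a member matched in RefSeq. Also named were the 2 largest and 2 smallest ratios of the brain list with a mean of at least 10. The 3 miRNAs nearest to miR-124-3p and to miR-9-5p were named too. Outside this rule, marker miRNAs, miR-383-5p, miR-211-5p, miR-7-5p, miR-132-3p, miR-128-3p and miR-744-5p were named after their values were seen. Alternatives changed the scaling, pseudocount, filter, fold threshold or left out 1 library. Python 3.11.15, numpy 2.4.6, pandas 2.3.3 and scipy 1.17.1 were used.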

Additional observations from a re-analysis of the deposited data

How the results depend on the processing

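The depth of 1177485 to 2663279 reads limits members with few reads, and 2 libraries per group limit every ratio. At 2-fold, 1 member was counted higher and 1 lower. The count of members higher was 2 at a fold threshold of 1.5 and 1 to 2 with a library left out (2 without overexpression library B). The count of members lower was 2 with upper-quartile scaling and at 1.5-fold, and 0 with either scaling to total reads and at 4-fold. It ranged between 0 (without control library B) and 2 (without control library A) with a library left out. Over all miRNAs, 174 were counted higher, against 64 with a pseudocount of 5, 43 with at least 50 reads, 291 at 1.5-fold and 47 at 4-fold. The count of all miRNAs lower was 164, against 57 with a pseudocount of 5, 54 with at least 50 reads, 287 at 1.5-fold and 23 at 4-fold. Scaling to total reads gave 224 higher and 105 lower, and without the 10 most abundant 222 higher and 107 lower. Upper-quartile scaling gave 149 higher and 187 lower, and TMM scaling gave 178 lower. Of the other hairpin strands, 2 were counted higher, against 1 with a pseudocount of 5 and at 4-fold, 0 with at least 50 reads, and 1 to 3 with a library left out (1 without overexpression library B or control library A). None was lower, against 1 at 1.5-fold and 0 to 1 with a library left out (1 without either overexpression library). Of the other brain-enriched miRNAs, 1 was counted higher, against 2 with either scaling to total reads, 0 with a pseudocount of 5, with at least 50 reads and at 4-fold, 3 at 1.5-fold, and 2 without any 1 of the 4 libraries. There 1 was lower, against 0 with a pseudocount of 5, with at least 50 reads and at 4-fold, 2 with no filter, 5 at 1.5-fold, and 1 to 2 with a library left out (2 without overexpression library B). Why these counts changed was not tested. No paired analysis was possible because the labels give the libraries no replicate numbers.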
